A study of Oryza sativa with 12 samples.

Results

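A set of 65 genes was raised in every OsbZIP62V library. These rice plants overexpress OsbZIP62, a bZIP transcription factor, fused to the VP64 activation module. The set was chosen on 6 libraries, the 3 of OsbZIP62V leaves and the 3 of leaves of their wild type Kitaake. A gene was taken when it had at least 5 CPM (the share of a library's counted reads that fell on the gene, scaled to 1000000 reads) in each OsbZIP62V library and when the lowest of those 3 values was at least 4 times the highest of the 3 Kitaake values. The set holds 65 of 35679 genes listed, which is 0.182%, and 11423 genes reached 5 CPM in each OsbZIP62V library. Because these values chose the genes, the OsbZIP62V and Kitaake levels are given below as a description and carry no test. The question asked of them was how the same genes stood in the other 6 libraries, which the choice did not use. These came from osbzip62 plants, which carry a CRISPR/Cas9 mutation of OsbZIP62, and from leaves of their wild type Nipponbare. The source labels name leaves for the other groups but no tissue for osbzip62.

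All 4 groups were labelled as grown in normal conditions, with 3 libraries per group. The sequencing methods state no growth stage or medium. For the Nipponbare plants of its expression profiles, the study describes a greenhouse, a culture solution and sampling from the four-leaf stage. The methods describe each library as a biological replicate of 30 plants. The titles name 1 line of each transgenic kind, OE1 for OsbZIP62V in the Kitaake background and C54 for osbzip62 in the Nipponbare background, so construct and line cannot be told apart. Which promoter drives the transgene is not stated in the methods. For the stress assays the methods state that transgenic seeds were germinated with hygromycin and wild-type seeds without it. Whether this applied to the plants sequenced is not stated, and its part in the results was not tested.

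bZIP factors of this subfamily act in the response to abscisic acid (ABA), the hormone that builds up in leaves when water is short. ABA is bound by receptors that inhibit PP2C phosphatases, the brakes of the pathway, and this releases SnRK2 kinases that phosphorylate bZIP factors. Activated bZIP factors bind promoter elements with an ACGT core and raise genes of dehydration proteins such as LEA proteins, of further transcription factors, and of the PP2C phosphatases themselves.

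The mutant construct targets OsbZIP62 (LOC_Os07g48660, chromosome 7) with a guide of 19 nt, the stretch that both primers of the construct in the study's primer list share. It is shown because it defines the group on which all tests below rest. It is printed in capitals throughout, since no part of it is singled out.
Guide of the osbzip62 construct: GCGTGTATAACCGCGTGGA

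The libraries held 9224755 to 19759728 counted reads, the lowest and the highest both from Kitaake. Among the 65 genes the lowest OsbZIP62V library was replicate 1 in 31, replicate 2 in 19 and replicate 3 in 15. The size of the set nonetheless depended most on OsbZIP62V replicate 2. Without it the same rule would take 522 genes, whereas leaving out any other of the 6 libraries gave 67 to 86 genes. Lists of tissue genes were drawn by annotation words from 2895 genes with a locus name, all of which the study lists as changed in these libraries. They are thus no full lists of such genes. The 14 genes annotated as chlorophyll a-b binding, photosystem or ribulose bisphosphate proteins, taken here as leaf genes, summed to 4823 to 12881 CPM in OsbZIP62V and 3367 to 3560 CPM in Kitaake. They summed to 8247 to 16907 CPM in osbzip62 and 11691 to 34475 CPM in Nipponbare, and at most 1 of the 14 was at 0 in any library. A further 7 genes, taken as root genes, summed to 41.2 to 113 CPM in OsbZIP62V, 19.2 to 25.1 CPM in Kitaake, 53.4 to 68.0 CPM in osbzip62 and 27.9 to 166 CPM in Nipponbare. The 36 genes annotated as histone, cyclin, kinesin or Xklp2 proteins, taken as genes of dividing cells, summed to 403 to 799 CPM in OsbZIP62V, 427 to 467 CPM in Kitaake, 886 to 1213 CPM in osbzip62 and 371 to 833 CPM in Nipponbare. None of them is a member, and their sum in every osbzip62 library lay above that in every Nipponbare library. Every OsbZIP62V library lay above every Kitaake library in 12 of the 14 leaf genes, 6 of the 7 root genes and 17 of the 36 genes of dividing cells. Every one lay below in 0, 0 and 5 of them. Among the 2895 genes 48.7% lay above and 12.6% below, and among all genes 12.6% and 6.61%. The part of these differences in the results below was not tested. In bulk RNA, fewer cells of a type and less RNA per cell cannot be told apart.

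Within OsbZIP62V the 65 genes ran from low to very high levels. The lowest of the 3 OsbZIP62V values had a median of 14.7 CPM over the genes and lay between 5.06 and 992 CPM. In Kitaake, 21 genes stayed under 1 CPM in all 3 libraries and 16 reached 5 CPM in at least 1. In 24 genes the lowest OsbZIP62V value was more than 10 times the highest Kitaake value. The OsbZIP62V replicates were mostly close to each other, since the highest was under 2 times the lowest in 50 of 65 genes. At the limit itself, the ratio of the lowest OsbZIP62V value to the highest Kitaake value was 4.02 for the bZIP gene LOC_Os02g52780, 4.08 for the PP2C gene LOC_Os01g40094, 4.11 for LOC_Os10g33190 and 4.20 for LOC_Os08g02180. Just outside it were OsNHX1 (LOC_Os07g47100), a vacuolar sodium-proton exchanger, at 3.99, LOC_Os02g10730 at 3.96, a glycosyl hydrolase gene (LOC_Os03g26910) at 3.87 and LOC_Os01g62770 at 3.85.

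The genes were sorted by their annotation into 9 transcription regulators, 5 signalling proteins, 7 protective or stress-induced proteins, 13 metabolic enzymes, 3 membrane transporters, 6 other named proteins and 22 genes with no named function. A locus name was available for 62 of the 65, and the other 3 appear by their own identifiers.

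**Figure D1:**
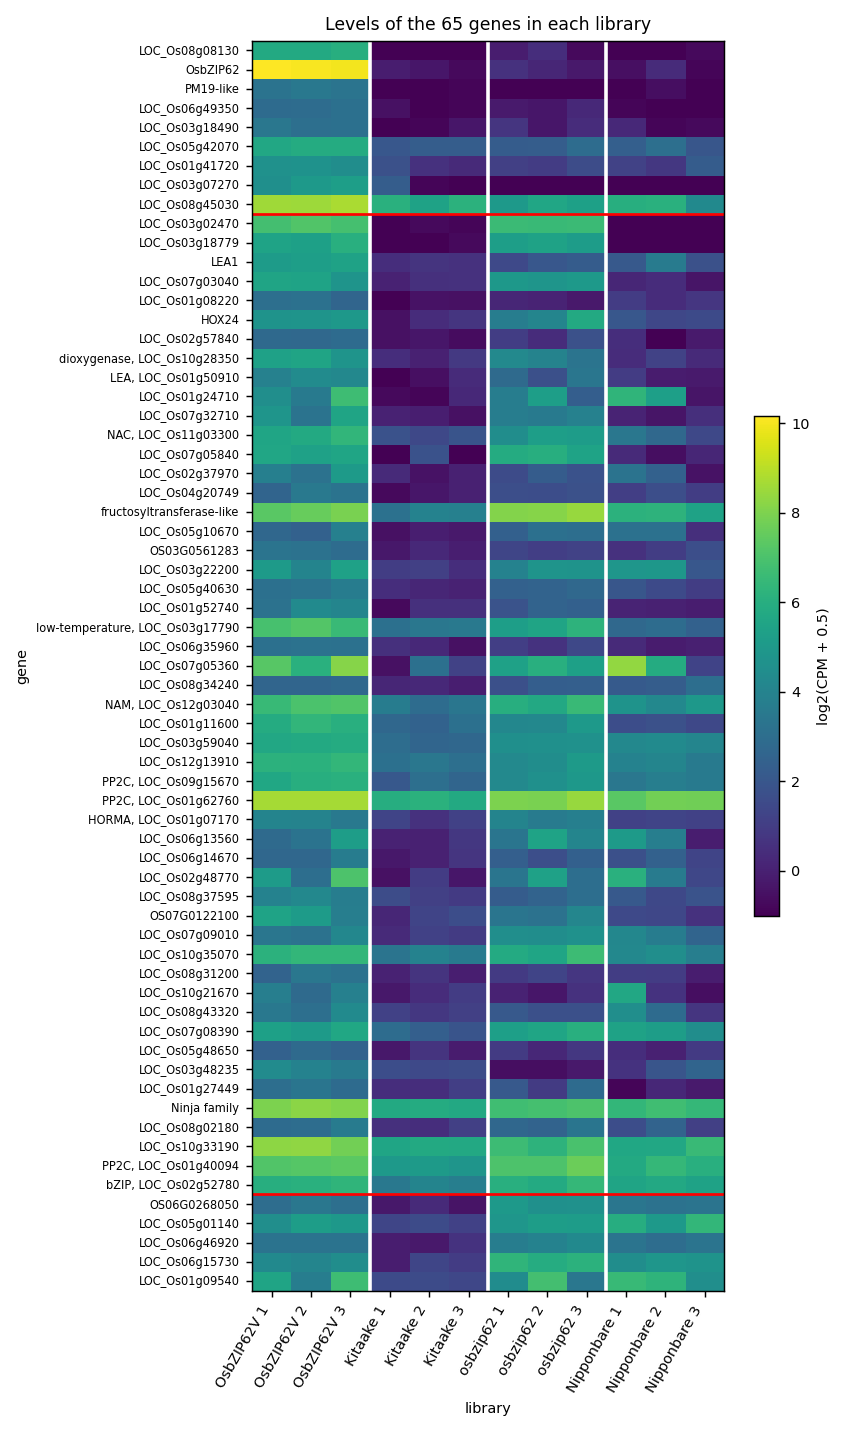
Levels of the 65 genes, one line each, in the 12 libraries, as log2(CPM + 0.5) in colour. Red lines set off the 9 genes that stayed low in all osbzip62 and Nipponbare libraries (top) and the 5 that were high in all of them (bottom). Of the 61 genes tested between osbzip62 and Nipponbare, 45 had a fitted log2 fold change above 0.

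The libraries of osbzip62 and Nipponbare were compared with edgeR's quasi-likelihood test over 20398 genes, with Benjamini-Hochberg adjustment. All adjusted p-values below come from it unless DESeq2 is named. Of the 65 genes, 61 passed the filter on low counts. The other 4 (the PM19-like gene LOC_Os05g31670, LOC_Os08g08130, LOC_Os06g49350 and LOC_Os03g07270) were too low to be tested. Of the 61, 11 genes were called higher in osbzip62 (adjusted p under 0.05 and a log2 fold change over 1), which is 18.0%, whereas 0.377% of all 20398 genes tested were called higher. None was called lower, where 0.0441% of all genes tested were. At an unadjusted p under 0.05, 27 were higher, against 8.67% of all genes tested, and 4 were lower, against 8.19%. DESeq2 called 20 higher and 1 lower, against 2.44% and 1.7% of all genes it could judge. The 1 lower was LOC_Os03g48235, with 0.162, 0.175 and 0.338 CPM in osbzip62, against 1.06, 3.3 and 5.54 CPM in Nipponbare, and 20.5, 14.9 and 11.7 CPM in OsbZIP62V, against 2.6, 2.3 and 2.53 CPM in Kitaake. It was also the single gene of the set in the study's table of proposed OsbZIP62 targets, a table chosen on these libraries, and edgeR gave it a log2 difference of -4.08 (SE 0.80) at an adjusted p of 0.079. In its text the study also treats a further member, the NAC gene LOC_Os11g03300 described below, as a putative target.

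In CPM, every osbzip62 library lay above every Nipponbare library in 32 of the 61 genes (52.5%), against 20.7% of all genes tested. In 2 (3.28%) every one lay below, against 4.45%. CPM lack the TMM scaling of library totals that the edgeR test applies. The TMM factors were 1.07, 0.919 and 0.803 in Nipponbare, against 1.03, 1.08 and 0.995 in osbzip62. A factor under 1 raises the scaled level of a library. Whether these orders, and those given below, hold after this scaling was not tested. The median log2 fold change was 0.69 over the 61 and -0.04 over all genes tested. The number of calls depended on single libraries. Without osbzip62 replicate 1 or osbzip62 replicate 3, no gene of the set and no gene at all was called by edgeR. At an unadjusted p under 0.05, 27 and 23 of the set were then higher, against 1260 of 21046 and 1112 of 21077 genes tested. Lower were 2 and 1 of the set, against 860 and 884 of all genes tested. Without osbzip62 replicate 2 or Nipponbare replicate 2, 4 of the set were called higher, against 9 and 15 of all genes tested. Without Nipponbare replicate 1 the number was 8, against 52 of all genes tested. Without Nipponbare replicate 3 it was 16, against 234. With no library left out, 11 of the set and 77 of all genes tested were called higher. Of the 11 called genes, 7 had no named function, as had 22 of the 65.

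Among the transcription regulators, OsbZIP62 itself was the most abundant of the 65 per gene length, with a mean deposited RPKM (reads scaled by gene length and library total) of 500.0 in OsbZIP62V and 0.129 in Kitaake. Its levels were 1152, 1071 and 992 CPM in OsbZIP62V, against 0.434, 0.294 and 0.101 CPM in Kitaake. Reads of the transgene, which carries the coding sequence, count here as reads of the gene. The osbzip62 libraries held 1.03, 0.641 and 0.338 CPM and the Nipponbare libraries 0.177, 0.782 and 0.0549 CPM. The gene was thus barely read in any library without the transgene, and its levels in osbzip62 and Nipponbare overlapped. A count of reads does not show whether the mutant transcript is functional.

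LOC_Os02g52780, called OsbZIP23 in the study, is another bZIP factor of the ABA response. It had 64.6, 68.4 and 79.6 CPM in OsbZIP62V, against 10.5, 16.1 and 13.3 CPM in Kitaake. It stood at 65.1, 57.1 and 86.1 CPM in osbzip62, against 45.4, 53.7 and 42.7 CPM in Nipponbare. Both Nipponbare-background groups were thus nearer to OsbZIP62V than to Kitaake. In CPM, every osbzip62 library lay above every Nipponbare library. The nearest values were 57.1 and 53.7 CPM, an order that may not hold after TMM scaling. The log2 fold change of 0.40 (SE 0.22) did not pass the test (edgeR adjusted p = 0.413).

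HOX24 (LOC_Os02g43330), a homeodomain-leucine zipper factor, had 25.9, 27.2 and 30.8 CPM in OsbZIP62V, against 0.217, 0.824 and 1.16 CPM in Kitaake. Its osbzip62 libraries had 12.7, 16.4 and 54.6 CPM, against 3.55, 2.12 and 2.36 CPM in Nipponbare. The groups did not overlap in either background, and osbzip62 replicate 3 exceeded every OsbZIP62V library. The difference between osbzip62 and Nipponbare was 3.26 on the log2 scale (SE 0.62, edgeR adjusted p = 0.0766), short of the threshold of 0.05. DESeq2 gave it an adjusted p of 1.65e-06.

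A pair of NAC-domain genes, members of a plant family of stress and development regulators, behaved alike. The one annotated for drought tolerance (LOC_Os11g03300) had 46.4, 54.2 and 81.2 CPM in OsbZIP62V, against 3.04, 2.18 and 3.19 CPM in Kitaake. Its osbzip62 libraries had 21.8, 37.8 and 35.2 CPM, against 10.4, 6.26 and 2.19 CPM in Nipponbare. These groups did not overlap, with a log2 fold change of 2.24 (SE 0.46, edgeR adjusted p = 0.0838). The study calls this gene OsNAC10 and reports that OsbZIP62 could bind its promoter in yeast. It describes the gene as lower in osbzip62 than in wild type, also by qPCR, whereas the libraries counted here had it higher in osbzip62. LOC_Os12g03040 had 92.6, 129 and 142 CPM in OsbZIP62V, against 12.4, 7.3 and 9.87 CPM in Kitaake. It had 63, 53.3 and 93.4 CPM in osbzip62, against 26.5, 18.1 and 30.2 CPM in Nipponbare, again without overlap (log2 fold change 1.32, SE 0.33, edgeR adjusted p = 0.119). With DESeq2 the adjusted p-values of the NAC pair were 6.16e-05 and 0.00693.

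A homeodomain-like gene (LOC_Os08g08130) had 54.4, 55.3 and 62.9 CPM in OsbZIP62V and no read in any Kitaake library. When 3 reads are allowed over the Kitaake group, it was at least 878-fold higher in OsbZIP62V. In the other background it had 0.432, 0.874 and 0.113 CPM in osbzip62, from 25 reads, against 0, 0 and 0.11 CPM in Nipponbare, from 2 reads. It was too low there to be tested. The ratio of these counts was 12.4, with a 95% counting interval of 3.09 to 108 that covers counting error only.

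The remaining regulators were low. The gene of a heat stress factor of class C (LOC_Os06g35960) had 8.14, 8.63 and 8.42 CPM in OsbZIP62V, against 0.976, 0.706 and 0.202 CPM in Kitaake. It had 1.62, 1.05 and 2.14 CPM in osbzip62, against 0.768, 0.391 and 0.494 CPM in Nipponbare. These groups did not overlap, with a log2 fold change of 1.40 (SE 0.45, edgeR adjusted p = 0.197). An R2R3 Myb gene (LOC_Os06g14670) had 6.09, 6.1 and 12.6 CPM in OsbZIP62V, against 0.325, 0.53 and 1.16 CPM in Kitaake. A CCCH zinc finger gene (LOC_Os05g10670) had 6.2, 5.06 and 13.9 CPM in OsbZIP62V, against 0.217, 0.471 and 0.354 CPM in Kitaake. The Myb and zinc finger genes overlapped between osbzip62 and Nipponbare. Of the 8 regulators tested between osbzip62 and Nipponbare, none was called by edgeR, 4 had an unadjusted p under 0.05, and 3 were called by DESeq2 (HOX24 and the NAC pair).

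The signalling members included 3 PP2C phosphatase genes. PP2C 9 (LOC_Os01g62760) had 408, 409 and 403 CPM in OsbZIP62V, against 62.2, 70.7 and 54.5 CPM in Kitaake. It had 250.1, 241 and 349 CPM in osbzip62, against 157, 222 and 215 CPM in Nipponbare. Its level was nearly constant among OsbZIP62V libraries (407 ± 3.15 CPM, SD, n = 3), and with a mean RPKM of 197 it was high per gene length, as was the lt101.2-like gene described below at 197. The other wild type carried the gene at a level between those of OsbZIP62V and Kitaake.

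PP2C 68 (LOC_Os09g15670) had 49.9, 64.1 and 67.1 CPM in OsbZIP62V, against 3.69, 8.06 and 5.77 CPM in Kitaake. It had 18.3, 23.7 and 30.2 CPM in osbzip62, against 10.3, 13.4 and 11.2 CPM in Nipponbare. The third gene, LOC_Os01g40094, had 138, 151 and 164 CPM in OsbZIP62V, against 32.1, 33.9 and 28.2 CPM in Kitaake. Its osbzip62 libraries had 132, 131 and 202 CPM, as high as those of OsbZIP62V, against 55, 87.4 and 64.8 CPM in Nipponbare. In CPM, every osbzip62 library lay above every Nipponbare library in all 3 PP2C genes. For PP2C 9 the nearest values were 241 and 222 CPM, an order that may not hold after TMM scaling. The log2 fold changes were 0.32 (SE 0.28) for PP2C 9, 0.88 (SE 0.26) for PP2C 68 and 1.00 (SE 0.30) for LOC_Os01g40094. None passed edgeR's test, with adjusted p-values of 0.595, 0.163 and 0.17 in that order.

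A Ninja-family gene (LOC_Os03g11550) belongs to a family known in Arabidopsis to restrain the ABA factor ABI5. It had 247, 301 and 267 CPM in OsbZIP62V, against 55.2, 58.3 and 53.6 CPM in Kitaake. It had 108, 118 and 131 CPM in osbzip62, against 83.3, 108 and 86.8 CPM in Nipponbare, a log2 fold change of 0.19 (SE 0.20, edgeR adjusted p = 0.648). In CPM, every osbzip62 library lay above every Nipponbare library, by a narrow margin that may not hold after TMM scaling. The last signalling member, a kinase gene of the SNF1-like group (LOC_Os08g34240), had 5.72, 5.77 and 6.41 CPM in OsbZIP62V, against 0.65, 0.706 and 0.455 CPM in Kitaake, and overlapped between osbzip62 and Nipponbare.

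Late embryogenesis abundant (LEA) proteins shield cells that lose water and are best known from ripening seeds. LEA1 (LOC_Os03g20680) had 34.4, 37.9 and 43.4 CPM in OsbZIP62V, against 0.867, 1.12 and 1.01 CPM in Kitaake. It had 2.27, 3.56 and 4.23 CPM in osbzip62, against 3.78, 12.1 and 2.96 CPM in Nipponbare, where the groups overlapped. A second LEA gene (LOC_Os01g50910) had 14.7, 20.2 and 18.3 CPM in OsbZIP62V, against 0, 0.177 and 0.81 CPM in Kitaake. It differed from LEA1 in the other background, with 6.85, 2.86 and 10.03 CPM in osbzip62, against 1.48, 0.391 and 0.384 CPM in Nipponbare and no overlap (log2 fold change 3.06, SE 0.66, edgeR adjusted p = 0.0966, DESeq2 adjusted p = 0.00034).

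The gene similar to PM19 (LOC_Os05g31670), an ABA-induced protein of the plasma membrane, was read in OsbZIP62V almost alone, at 8.95, 10.7 and 9.42 CPM. Kitaake held 1 read of it in all 3 libraries together, against 511 reads in OsbZIP62V, a ratio of 446 with a 95% counting interval of 79.7 to 17652. The osbzip62 libraries held none, and the Nipponbare libraries 0, 0.168 and 0 CPM. It was not tested there because it was too low.

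LOC_Os03g17790, similar to the low-temperature induced protein lt101.2, was the 1 protective member called higher in osbzip62. It had 120.1, 147 and 93.4 CPM in OsbZIP62V, against 8.24, 10.4 and 11 CPM in Kitaake. It had 37.3, 45.4 and 74.1 CPM in osbzip62, against 6.38, 7.27 and 5.05 CPM in Nipponbare. The osbzip62 level was higher by 2.92 on the log2 scale (SE 0.31, edgeR adjusted p = 0.0226), and both wild types were low. A remorin-like gene (LOC_Os02g57840) of the plasma membrane had 6.58, 6.37 and 6.97 CPM in OsbZIP62V, against 0.217, 0.294 and 0.152 CPM in Kitaake. It had 1.51, 0.816 and 2.93 CPM in osbzip62, against 0.887, 0 and 0.384 CPM in Nipponbare, where the groups overlapped.

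The salt stress-induced gene (LOC_Os01g24710) varied widely within its groups. It had 22.2, 11.8 and 103 CPM in OsbZIP62V, against 0.108, 0.0589 and 0.709 CPM in Kitaake. It had 12.9, 38 and 4.57 CPM in osbzip62, against 78.4, 38.8 and 0.274 CPM in Nipponbare, a range that held both the highest and the lowest of these 6 values. A gene annotated as dehydration stress-induced (LOC_Os10g21670) had 13.3, 6.81 and 14.1 CPM in OsbZIP62V, against 0.325, 0.824 and 1.47 CPM in Kitaake. It had 0.54, 0.291 and 1.01 CPM in osbzip62, against 52.1, 1.06 and 0.165 CPM in Nipponbare, so that a single Nipponbare library carried nearly all reads outside OsbZIP62V. Its difference between osbzip62 and Nipponbare did not pass edgeR's test (adjusted p = 0.261).

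**Figure D2:**
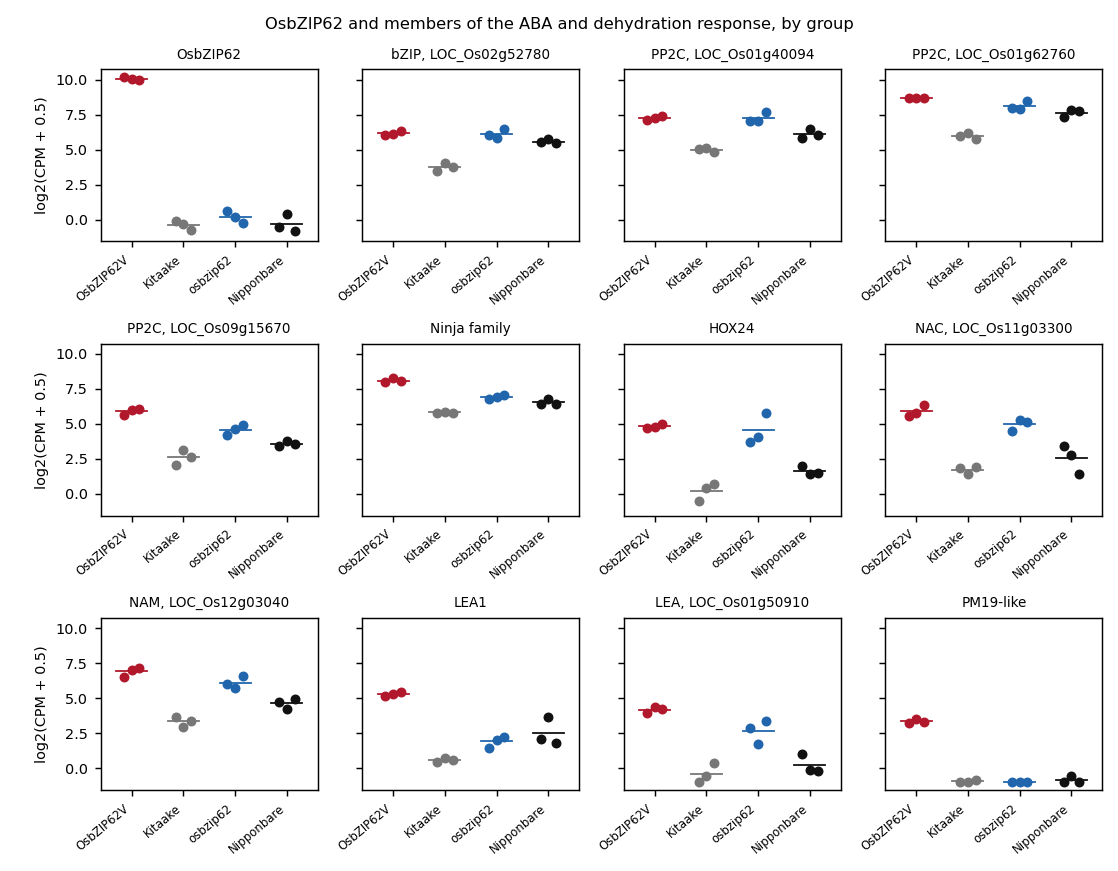
Levels of OsbZIP62 and 11 of the genes tied to ABA or dehydration, as log2(CPM + 0.5). Each point is a library and each bar the mean of the 3 log2 values of its group. PM19-like and OsbZIP62 sit at the bottom in 3 of the 4 groups, while for HOX24, the NAC gene and the LEA gene LOC_Os01g50910 every osbzip62 point lies above every Nipponbare point.

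The metabolic enzymes act on sugars, hormones and small signalling molecules. The fructosyltransferase-like gene (LOC_Os02g01590), of the family that also holds the invertases, which cleave sucrose, had 159, 187 and 242 CPM in OsbZIP62V, against 8.56, 14.8 and 14.2 CPM in Kitaake. It had 269, 286 and 351 CPM in osbzip62, against 70.9, 73.4 and 43.1 CPM in Nipponbare. Every osbzip62 library exceeded every OsbZIP62V library, and the difference from Nipponbare passed the test (log2 fold change 2.14, SE 0.22, edgeR adjusted p = 0.0209). The gene of the dioxygenase of the methionine salvage cycle (LOC_Os10g28350) had 41.9, 45.7 and 26.6 CPM in OsbZIP62V, against 0.867, 0.53 and 1.32 CPM in Kitaake. It had 18.7, 15.6 and 9.24 CPM in osbzip62, against 0.828, 1.79 and 0.768 CPM in Nipponbare, and was called higher (log2 fold change 3.51, SE 0.43, edgeR adjusted p = 0.0365). These were the only called genes of the 13 enzymes, and DESeq2 called 3.

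The third of these, an alpha-galactosidase gene (LOC_Os10g35070), of a family that cleaves raffinose-type sugars, had 72.6, 84.9 and 83.9 CPM in OsbZIP62V, against 9.43, 14.9 and 11.2 CPM in Kitaake. It had 55.8, 46.2 and 101 CPM in osbzip62, against 17.9, 22.7 and 13.1 CPM in Nipponbare (log2 fold change 1.78, SE 0.35). The groups did not overlap, but the edgeR adjusted p was 0.0807, against 0.000138 with DESeq2. SQS (LOC_Os03g59040), squalene synthase at the entry to sterol synthesis, had 51.9, 54.3 and 57.3 CPM in OsbZIP62V, against 7.48, 5.77 and 6.12 CPM in Kitaake. It had 22.9, 23.8 and 24.6 CPM in osbzip62, against 18.2, 19.7 and 16.4 CPM in Nipponbare, with a log2 fold change of 0.23 (SE 0.15, edgeR adjusted p = 0.471). Every osbzip62 library lay above every Nipponbare library, though the groups were close.

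OsGA3ox2 (LOC_Os01g08220, the d18 gene) makes active gibberellin, a hormone of stem growth. It had 7.87, 8.57 and 5.78 CPM in OsbZIP62V, against 0, 0.235 and 0.202 CPM in Kitaake. It had 0.647, 0.583 and 0.338 CPM in osbzip62, against 1.48, 0.838 and 1.21 CPM in Nipponbare. This was 1 of only 2 tested members whose osbzip62 libraries all lay below the Nipponbare libraries, and its log2 fold change of -1.31 (SE 0.44) did not pass the test (edgeR adjusted p = 0.209). A UDP-glucosyltransferase gene (LOC_Os05g42070), of enzymes that attach glucose to small molecules, had 51.7, 57.7 and 57.8 CPM in OsbZIP62V, against 3.58, 4.36 and 4.4 CPM in Kitaake. It stood at 4.21, 4.37 and 7.22 CPM in osbzip62, against 4.67, 8.05 and 3.46 CPM in Nipponbare, all close to Kitaake. A second glucosyltransferase gene, annotated for cytokinin (LOC_Os08g31200), had 5.45, 10.3 and 8.86 CPM in OsbZIP62V, against 0.542, 1.12 and 0.455 CPM in Kitaake, and 0.439 to 1.92 CPM in osbzip62 and Nipponbare.

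The set holds 3 genes of methyltransferases that act on carboxyl groups of small molecules. The one annotated as jasmonate O-methyltransferase (LOC_Os05g01140) had 22.3, 36.3 and 30.7 CPM in OsbZIP62V, against 2.06, 2.41 and 1.72 CPM in Kitaake. Its osbzip62 libraries had 28.8, 36.6 and 35.1 CPM, against 62.3, 32.9 and 83.2 CPM in Nipponbare, so that Kitaake alone was low. The other pair was uneven among replicates. LOC_Os02g48770 had 34.5, 7.69 and 133 CPM in OsbZIP62V, against 0.217, 1.47 and 0.304 CPM in Kitaake. It had 9.77, 40.9 and 7.78 CPM in osbzip62, against 68.6, 12.1 and 2.08 CPM in Nipponbare. The gene similar to anthranilic acid methyltransferase (LOC_Os06g13560) had 6.69, 9.18 and 37.2 CPM in OsbZIP62V, against 0.542, 0.53 and 1.27 CPM in Kitaake, and overlapped between osbzip62 and Nipponbare.

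Among the transporters, the gene annotated as ABC transporter B family member 1 (LOC_Os08g45030), whose Arabidopsis namesake moves auxin out of cells, had 385, 366 and 436 CPM in OsbZIP62V, against 67.5, 42.9 and 72.8 CPM in Kitaake. It had 31.8, 48.9 and 40.2 CPM in osbzip62, against 63.3, 66.7 and 19 CPM in Nipponbare. No library outside OsbZIP62V passed 72.8 CPM, and osbzip62 and Nipponbare overlapped. The CorA-like magnesium transporter gene (LOC_Os01g41720) had 24.5, 25.4 and 21.9 CPM in OsbZIP62V, against 2.93, 1 and 0.759 CPM in Kitaake. It was at 1.67, 1.46 and 2.54 CPM in osbzip62, against 1.77, 1.23 and 4.28 CPM in Nipponbare. The nitrate and chloride transporter gene (LOC_Os07g09010) was different, with 10.03, 8.63 and 17.8 CPM in OsbZIP62V, against 0.759, 1.77 and 1.42 CPM in Kitaake. It had 22.4, 22 and 24.5 CPM in osbzip62, against 17.3, 12.4 and 5.49 CPM in Nipponbare, so that every osbzip62 library exceeded every OsbZIP62V library (osbzip62 against Nipponbare, log2 fold change 0.87, SE 0.31, edgeR adjusted p = 0.226).

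Other named members included a gene similar to NBS-LRR resistance proteins (LOC_Os06g49350), intracellular receptors of pathogens. It had 6.9, 7.2 and 8.23 CPM in OsbZIP62V, against 0.217, 0 and 0.0506 CPM in Kitaake, a ratio of 113 from 390 and 3 reads (95% counting interval 38.5 to 553). It had 0.378, 0.291 and 0.733 CPM in osbzip62, against 0.0591, 0 and 0 CPM in Nipponbare, and was too low there to be tested. The gene annotated as RPGR (LOC_Os03g18490) had 10.4, 7.86 and 8.29 CPM in OsbZIP62V, against 0, 0.0589 and 0.304 CPM in Kitaake, and at most 1.13 CPM in the other 6 libraries. The HORMA-domain gene (LOC_Os01g07170), of a domain found in proteins of meiotic chromosomes, had 15.9, 15.5 and 10.8 CPM in OsbZIP62V, against 1.95, 1 and 1.72 CPM in Kitaake. It had 15.9, 12 and 13.5 CPM in osbzip62, against 1.71, 1.96 and 1.7 CPM in Nipponbare. The levels of both transgenic groups and of both wild types nearly coincided, and the difference between osbzip62 and Nipponbare passed the test (log2 fold change 2.78, SE 0.23, edgeR adjusted p = 0.0103).

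LOC_Os03g22200, similar to a cytochrome c oxidoreductase, had 33.5, 15.9 and 41.5 CPM in OsbZIP62V, against 1.52, 1.65 and 0.86 CPM in Kitaake. It had 14.8, 27.3 and 26.3 CPM in osbzip62, against 28.4, 29.6 and 3.57 CPM in Nipponbare, where the groups overlapped. A rhomboid protease gene (LOC_Os08g43320), of enzymes that cut proteins within membranes, had 10.7, 8.02 and 19.7 CPM in OsbZIP62V, against 1.73, 1.24 and 1.67 CPM in Kitaake. Its osbzip62 libraries had 3.83, 2.8 and 2.76 CPM, against 22.5, 6.93 and 1.15 CPM in Nipponbare, with a high value in 1 Nipponbare library only. The gene of a tumor-related-like protein (LOC_Os05g48650) had 5.07, 6.87 and 5.34 CPM in OsbZIP62V, against 0.325, 1.12 and 0.405 CPM in Kitaake, and 0.503 to 1.40 CPM in osbzip62 and Nipponbare.

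A pair of genes with no named function also stood far apart between OsbZIP62V and Kitaake. LOC_Os03g02470 had 112, 141 and 117 CPM in OsbZIP62V, against 0, 0.118 and 0.0506 CPM in Kitaake. It had 98, 94.3 and 97.1 CPM in osbzip62, and no read in any Nipponbare library. With 3 reads allowed over the Nipponbare group it was at least 1706-fold higher in osbzip62 (edgeR adjusted p = 0.00261). Against the 3 reads of Kitaake, the 6516 reads of OsbZIP62V gave a ratio of 1896, with a 95% counting interval of 648 to 9196.

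LOC_Os03g18779 had 43.9, 39.9 and 66.6 CPM in OsbZIP62V, against 0, 0 and 0.101 CPM in Kitaake. It had 37.4, 43 and 35.8 CPM in osbzip62, and again no read in Nipponbare, at least 683-fold higher in osbzip62 (edgeR adjusted p = 0.00261). Both genes were thus read at similar levels in plants with more OsbZIP62 and in plants with a mutated OsbZIP62, and hardly or not at all in either wild type. Because the library kit left strands unmarked, these genes cannot be told apart from any overlapping or antisense transcript.

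A further 5 genes with no named function followed the same order. LOC_Os07g05840 had 48.3, 41.4 and 47.1 CPM in OsbZIP62V, against 0, 3.06 and 0 CPM in Kitaake. It had 58.3, 63.5 and 44.3 CPM in osbzip62, against 0.768, 0.168 and 0.658 CPM in Nipponbare (log2 fold change 6.53, SE 0.45, edgeR adjusted p = 0.00577). Of the wild-type libraries only Kitaake replicate 2 passed 1 CPM. LOC_Os07g03040 had 45.1, 44.7 and 27.3 CPM in OsbZIP62V, against 0.542, 0.942 and 1.01 CPM in Kitaake. It had 30.2, 28.1 and 32.1 CPM in osbzip62, against 0.65, 0.838 and 0.274 CPM in Nipponbare (log2 fold change 5.53, SE 0.33, edgeR adjusted p = 0.00345). The next identifier in the files, OS07G0122100, is a member as well. It had 44.6, 35.1 and 13.1 CPM in OsbZIP62V, against 0.65, 1.94 and 2.63 CPM in Kitaake, and 9.5, 8.86 and 16.7 CPM in osbzip62, against 2.25, 2.12 and 0.988 CPM in Nipponbare (edgeR adjusted p = 0.0521). These neighbours may share reads, since the strand was not marked.

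LOC_Os07g32710 had 27.9, 8.96 and 45.1 CPM in OsbZIP62V, against 0.542, 0.471 and 0.202 CPM in Kitaake. It had 12.7, 11.7 and 14.4 CPM in osbzip62, against 0.591, 0.279 and 0.933 CPM in Nipponbare (log2 fold change 4.23, SE 0.46, edgeR adjusted p = 0.0233). Its osbzip62 replicates were even, while OsbZIP62V replicate 2 was low. LOC_Os01g11600 had 57.9, 81.5 and 66.1 CPM in OsbZIP62V, against 6.18, 5.24 and 8.25 CPM in Kitaake. It had 17.7, 18.1 and 31.4 CPM in osbzip62, against 2.6, 2.91 and 2.19 CPM in Nipponbare (log2 fold change 2.98, SE 0.31, edgeR adjusted p = 0.0215). LOC_Os01g52740, the called gene with the lowest levels in osbzip62, had 8.63, 19.6 and 16.7 CPM in OsbZIP62V, against 0.108, 0.942 and 0.962 CPM in Kitaake. It had 3.08, 5.42 and 4.85 CPM in osbzip62, against 0.591, 0.503 and 0.439 CPM in Nipponbare (log2 fold change 2.95, SE 0.34, edgeR adjusted p = 0.0273).

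The other genes with no named function were not called. The most abundant, LOC_Os10g33190, had 312, 314 and 224 CPM in OsbZIP62V, against 46.6, 54.6 and 52.7 CPM in Kitaake. It had 101, 75 and 125 CPM in osbzip62, against 49.4, 50.6 and 94.6 CPM in Nipponbare, where the groups overlapped. LOC_Os12g13910 had 71.8, 70.5 and 84.5 CPM in OsbZIP62V, against 8.24, 10.2 and 8.05 CPM in Kitaake. It had 18.4, 21.7 and 33.6 CPM in osbzip62, against 14.8, 16.5 and 11.6 CPM in Nipponbare. These CPM did not overlap, which may not hold after TMM scaling. The log2 fold change was small, at 0.64 (SE 0.27, edgeR adjusted p = 0.297). A DUF506 gene (LOC_Os07g08390) had 40.7, 33 and 49.5 CPM in OsbZIP62V, against 7.15, 4.65 and 3.24 CPM in Kitaake. It had 39.3, 46.7 and 65.1 CPM in osbzip62, against 42.9, 36.5 and 21.8 CPM in Nipponbare, so that only Kitaake was low. A DUF581 gene (LOC_Os02g37970) had 13.5, 8.85 and 33.2 CPM in OsbZIP62V, against 0.759, 0.235 and 0.506 CPM in Kitaake. It had 2.43, 4.31 and 2.99 CPM in osbzip62, against 9.1, 5.09 and 0.219 CPM in Nipponbare, where the groups overlapped.

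The rest of these genes were low in most libraries. LOC_Os08g37595 had 14.9, 18.2 and 12.8 CPM in OsbZIP62V, against 2.49, 1.65 and 1.37 CPM in Kitaake. A DUF567 gene (LOC_Os05g40630) had 8.09, 8.96 and 12.2 CPM in OsbZIP62V, against 0.867, 0.647 and 0.557 CPM in Kitaake. In both genes every osbzip62 library lay above every Nipponbare library, at 4.32 to 7.72 CPM against 2.18 to 3.84 CPM for LOC_Os08g37595 and at 4.96 to 6.37 CPM against 1.54 to 3.43 CPM for LOC_Os05g40630. LOC_Os04g20749 had 5.5, 10.9 and 9.04 CPM in OsbZIP62V, against 0.108, 0.294 and 0.506 CPM in Kitaake. OS03G0561283 had 9.27, 8.68 and 7.22 CPM in OsbZIP62V, against 0.325, 0.706 and 0.455 CPM in Kitaake. These last were at 1.00 to 2.87 CPM in osbzip62 and Nipponbare, and their groups there overlapped. LOC_Os08g02180 had 7.01, 7.36 and 12.2 CPM in OsbZIP62V, against 0.976, 0.883 and 1.67 CPM in Kitaake. LOC_Os01g27449 had 7.66, 9.51 and 6.97 CPM in OsbZIP62V, against 0.867, 0.883 and 1.62 CPM in Kitaake. It was low in Nipponbare, at 0.0591 to 0.671 CPM, against 1.40 to 6.99 CPM in osbzip62, without overlap (log2 fold change 3.26, SE 0.88, edgeR adjusted p = 0.141).

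**Figure D3:**
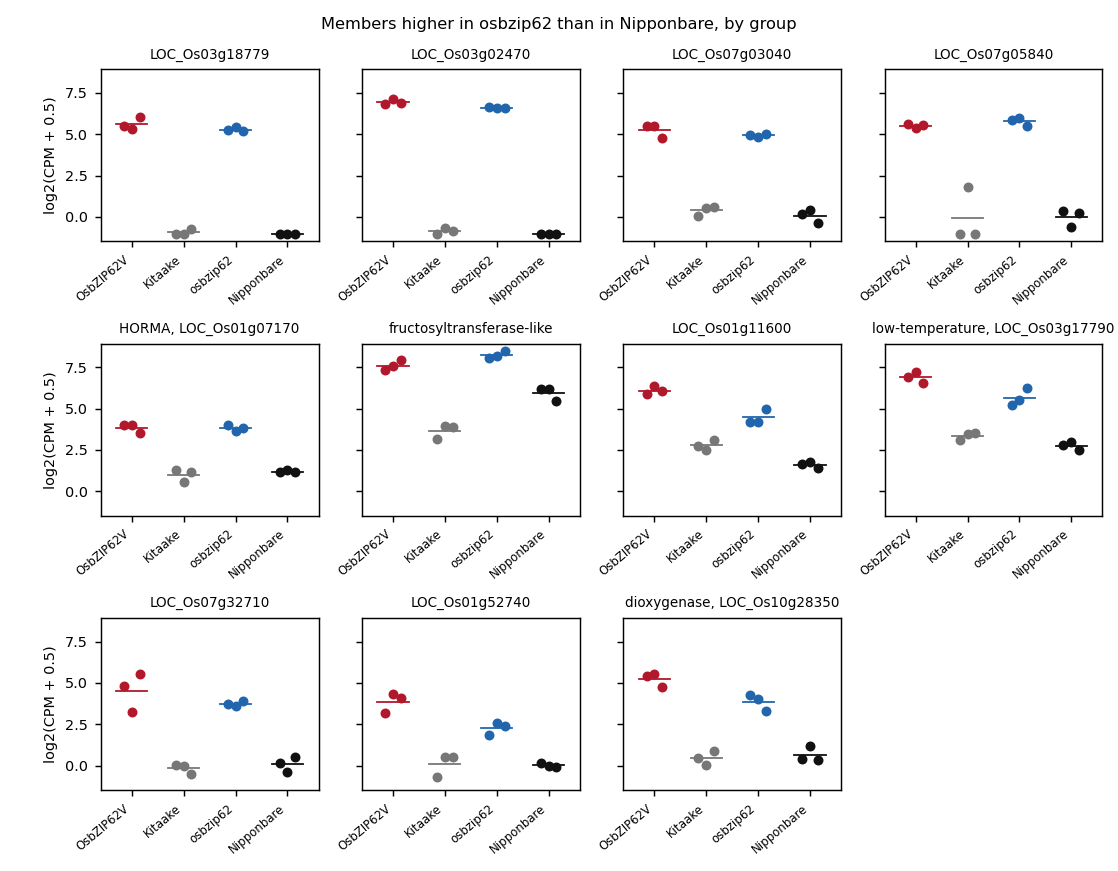
The 11 genes of the set that were called higher in osbzip62 than in Nipponbare, as log2(CPM + 0.5), in order of adjusted p. Each point is a library and each bar the mean of the 3 log2 values. In every panel both transgenic groups lie above both wild types.

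The rule that defined the set was then applied to osbzip62 over Nipponbare, an analysis added after the data had been seen. It took 40 of 35679 genes (0.112%). Of these, 9 belonged to the set, which is 13.8% of the set and 22.5% of the 40. They were the 11 called genes without the fructosyltransferase-like gene and LOC_Os01g52740. Applied the other way, to Nipponbare over osbzip62, the rule took 1 gene (0.0028%), which was not of the set.

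**Figure D4:**
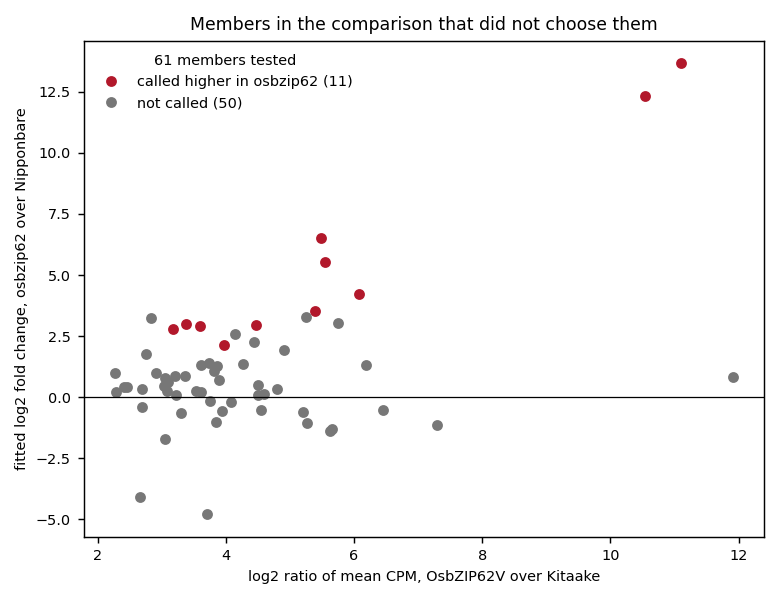
Each point is one of the 61 genes tested. The horizontal axis gives the log2 ratio of mean CPM of OsbZIP62V over Kitaake, which the choice of genes used, and the vertical axis the fitted log2 fold change of osbzip62 over Nipponbare, which it did not use. The 11 called genes lie above 2 on the vertical axis, and the fitted values of the uppermost pair, with no read in Nipponbare, depend on the prior count.

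Levels in the second background also sorted the set, as a description that shares the Kitaake and OsbZIP62V values with the choice. In 9 genes (13.8%, against 0.376% of the 11423 genes at 5 CPM) the lowest OsbZIP62V library was at least 4 times the highest of the 6 osbzip62 and Nipponbare libraries. They were OsbZIP62, LOC_Os08g08130, PM19-like, LOC_Os06g49350, RPGR, the UDP-glucosyltransferase, the CorA-like and ABC transporters, and LOC_Os03g07270. The last had 22.8, 32.7 and 38.2 CPM in OsbZIP62V, against 4.44, 0.0589 and 0 CPM in Kitaake, and no read in the 6 other libraries, which allows up to 0.0562 CPM over osbzip62 and 0.0566 CPM over Nipponbare.

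In 5 genes (7.69%, against 0.219%) all 6 of these libraries were at least 4 times the highest Kitaake library, so that Kitaake alone was low. Beside the jasmonate O-methyltransferase, they included the NAD(P)-binding protein gene LOC_Os06g46920, with 9.17, 9.18 and 9.04 CPM in OsbZIP62V, against 0.434, 0.353 and 1.06 CPM in Kitaake. It had 12.8, 15 and 19.2 CPM in osbzip62, against 9.28, 7.49 and 9.33 CPM in Nipponbare. LOC_Os06g15730 had 19.1, 16.3 and 21.7 CPM in OsbZIP62V, against 0.434, 2 and 1.47 CPM in Kitaake. It had 78.8, 60.5 and 72.7 CPM in osbzip62, against 21.9, 28.7 and 26.1 CPM in Nipponbare, and was highest in osbzip62 (log2 fold change 1.29, SE 0.23, edgeR adjusted p = 0.0716). The identifier next to it, OS06G0268050, had 7.55, 10.4 and 7.91 CPM in OsbZIP62V, against 0.325, 0.765 and 0.253 CPM in Kitaake. It had 32.6, 23.6 and 24.9 CPM in osbzip62, against 9.81, 8.72 and 9.44 CPM in Nipponbare, the same order (edgeR adjusted p = 0.0503). As neighbours these may share reads.

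The fifth, a gene of the HAD phosphatase family (LOC_Os01g09540), had 45.5, 13 and 104 CPM in OsbZIP62V, against 2.38, 2.47 and 2.07 CPM in Kitaake. It had 21.3, 114 and 10.2 CPM in osbzip62, against 92.4, 77.3 and 22.4 CPM in Nipponbare. It is 1 of 8 genes of the set whose highest OsbZIP62V library was 3 or more times the lowest. OsbZIP62V replicate 2 was the lowest in 6 of these 8 and replicate 3 the highest in 7. In Nipponbare, replicate 3 was the lowest in 7 of the 8, and in osbzip62 replicate 2 was the highest in 6. For comparison, among the 11423 genes at 5 CPM the OsbZIP62V minimum fell in replicate 2 for 24.8% and the maximum in replicate 3 for 56.9%. The osbzip62 maximum fell in replicate 2 for 40.4% and the Nipponbare minimum in replicate 3 for 55.1% of these genes. The gene of a photosystem II subunit (LOC_Os07g05360), which belongs to the leaf genes above, showed the same order with 156, 68.5 and 282 CPM in OsbZIP62V, against 0.217, 8.24 and 1.82 CPM in Kitaake. It had 41.4, 66.1 and 40.4 CPM in osbzip62, against 323, 59 and 1.87 CPM in Nipponbare. The leaf genes as a list were also lowest in replicate 2 and highest in replicate 3 within OsbZIP62V, highest in replicate 2 within osbzip62 and lowest in replicate 3 within Nipponbare. Whether leaf makeup took part in these 8 genes was not tested.

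The whole set kept an order across libraries. At 5 CPM or more, 38, 41 and 42 of the 65 genes were found in the osbzip62 libraries, against 30, 32 and 22 in the Nipponbare libraries. In Kitaake the numbers were 14, 15 and 14. The median log2 ratio of the set to the Kitaake mean was 3.20, 3.26 and 3.54 in OsbZIP62V. It was 2.01, 2.05 and 2.34 in osbzip62, against 0.94, 0.93 and 0.39 in Nipponbare. Over the 11423 genes at 5 CPM this median lay between -0.25 and 0.21 in the same 9 libraries. Every osbzip62 library thus held more of the set than every Nipponbare library. The summed level of the genes of dividing cells had the same order in these libraries, at 1086, 886 and 1213 CPM in osbzip62, against 833, 575 and 371 CPM in Nipponbare. Single genes of that list had this order in 9 of 36 cases, against 20.7% of all genes tested. The opposite order held in 1 of the 36, against 4.45% of all genes tested. In any of these libraries 0 to 3 of the 36 were at 0. The part of dividing cells in the result was not tested.

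Gene lists by annotation words were set beside the members, among the 2895 genes with a paired locus, all of which the study lists as changed in these libraries. Of these 2895 genes, 62 were members (2.14%), and every OsbZIP62V library lay above every Kitaake library in 48.7% and below in 12.6%, against 12.6% and 6.61% of all 35679 genes. Between osbzip62 and Nipponbare 2500 of them were tested, with a median log2 fold change of -0.29. EdgeR called 2.8% higher and 0.36% lower, DESeq2 called 30.4% and 48.4% had an unadjusted p under 0.05. Of 26 genes of dehydration and seed proteins, 5 were members, and in 20 every OsbZIP62V library lay above every Kitaake library. Between osbzip62 and Nipponbare 13 of the 26 were tested, with a median log2 fold change of -1.15. EdgeR called none of them, 6 had an unadjusted p under 0.05, and DESeq2 called 4. Of 124 genes matched by transcription factor words, 5 were members, 99 were tested between osbzip62 and Nipponbare, and 4 were called higher and 0 lower by edgeR, against 35 called by DESeq2 and 55 at an unadjusted p under 0.05. These words were incomplete, since they matched only 5 of the 9 members sorted above as transcription regulators. Of 16 PP2C genes, 3 were members. In 8 of the 16 every OsbZIP62V library lay above every Kitaake library and in 6 every one lay below. EdgeR called none of the 15 PP2C genes tested between osbzip62 and Nipponbare, 10 had an unadjusted p under 0.05 and DESeq2 called 3. The words for the PP2C list were chosen after the members were known. No member was among 128 cell wall genes, 41 peroxidase and germin genes or 21 heat shock genes. At the 2.14% share of the 2895 genes, few members would fall in lists of these sizes.

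The members lay on all 12 chromosomes, with 11 each on chromosomes 1 and 3 and 1 each on chromosomes 4, 9 and 11. Apart from the neighbours named above, no members were next to each other in the order of identifiers. Their gene length in the deposited tables had a median of 1830 bp, against 3426 bp for the genes at 5 CPM.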

How the data were processed

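Rice RNA was sequenced in 12 libraries, 3 per group, whose source labels name leaves except for osbzip62. The authors made TruSeq v2 libraries, which do not mark the strand, trimmed reads with SeqPrep and Sickle and aligned them with HISAT2 2.1.0. IRGSP-1.0 is the build in the submitters' processing notes, which list HTSeq 0.6.1p2 and Bowtie2 2.2.3 as further tools without their role. The annotation release was not found in labels or methods. The deposited counts are whole reads per gene with no normalization. The deposited RPKM are these counts divided by gene length and library total, and were used only for levels between genes and for gene lengths.

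CPM were counts divided by the column sum. Low CPM rest on few reads, so intervals cover counting error only. Counts of osbzip62 and Nipponbare were tested with edgeR 4.0.16 (R 4.3.3, limma 3.58.1; TMM, filterByExpr, quasi-likelihood test), and a call required an absolute log2 fold change over 1 together with a Benjamini-Hochberg adjusted p below 0.05. DESeq2 1.42.0 was an alternative. The test and the rule were tested on simulated data. Tables and figures used matplotlib 3.10.9, scipy 1.17.1, pandas 2.3.3 and numpy 2.4.6 under Python 3.11.15.

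The members and lists were chosen with earlier results of these data known. Members were named when they were OsbZIP62, had 1 of the 12 largest ratios or 8 highest levels, were called, belonged to the 8 most abundant of a level class, lay next to the limit (4 on each side), stood in the study's target table, or were among the 4 most abundant of an annotation list. All others were chosen after their values were seen, to complete the account. Locus names and annotations came from the study's tables of changed genes, paired to the identifiers through printed fold changes (relative tolerance 6e-06, same chromosome), which paired 2895 genes. The authors' fold changes and p-values were otherwise not used. Promoter motifs were not analysed here.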

Additional observations from a re-analysis of the deposited data

How the results depend on the processing

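The count of 65 genes was 56 to 95 with CPM on TMM library sizes, a floor of 2 CPM or a fold of 3, 39 with a floor of 10 CPM and 35 with a fold of 8. With each of the 6 libraries left out it ranged from 67 to 522. Genes low in all osbzip62 and Nipponbare libraries numbered 18 with a fold of 2 (9 with the fold of 4) and 9 to 11 with a library left out. Genes high in all of them numbered 11 with a fold of 2 (against 5) and 5 to 12 with a library left out.

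Members called higher in osbzip62 numbered 22 with all 12 libraries in 1 fit and 20 with DESeq2 (against 11), and 0 to 16 with a library left out. Members called lower numbered 1 in both of these (against 0) and 0 to 1 with a library left out. Over all genes, 365 and 156 were called higher and lower with 12 libraries in 1 fit, 523 and 364 with DESeq2, and 14 lower without the filter on low counts (against 77 and 9). With a library left out the ranges were 0 to 234 higher and 0 to 297 lower. RLE scaling, no filter, 12 libraries in 1 fit and DESeq2 each called all 11 members again. The cause of the shifts was not tested.

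Deviations of same-numbered osbzip62 and Nipponbare libraries from their group means correlated at -0.33, 0.20 and 0.43. The deviations within a group sum to 0, so these values depend on each other. They cannot settle whether the numbers pair the samples, and the labels do not state a pairing. With the replicate number as a block, 0 members were called higher and 0 lower, and over all genes 0 were called higher and 0 lower by edgeR. At an unadjusted p under 0.05 that fit had 28 members higher and 2 lower, and over all genes 1554 higher and 1414 lower.

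Members raised in every osbzip62 library by the rule itself numbered 9 to 11 with a library left out, alternatives that were chosen after seeing the data. No alternative turned the sign of any of the 31 members with an unadjusted p under 0.05.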
